A study of Sparus aurata with 30 samples.

Results

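The genes socs3 and cish encode inhibitors of cytokine signalling, and their transcript counts were followed in 3 tissues of Sparus aurata, the gilthead sea bream of Mediterranean fish farms: head kidney, intestine and liver. Both were taken by their symbols in the deposited count tables, 2 of 25722 genes. They were chosen by their diet differences in earlier results of the same data, chiefly the higher counts in liver on the yeast diet, so these differences are described here with no test. The fish received a control diet or a diet of which 30% was spent yeast left over from beer brewing and then dried, called SDY in the labels. In the SDY diet the yeast took the place of fish meal and of plant protein. The labels give 10% of fish meal and 31.4% of plant protein as replaced. Each of the 6 combinations of tissue and diet had 5 libraries, made from poly(A) RNA of randomly picked fish. The labels give no strain, age, sex or tank, so nothing is known of how fish were spread over tanks.

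Cytokines and pituitary hormones such as growth hormone bind receptors that carry JAK kinases, and these phosphorylate STAT transcription factors. Genes of the SOCS family (suppressors of cytokine signalling) are themselves STAT targets, and their products bind the receptor or the kinase and lower the signal, which makes a negative feedback loop. In mammals SOCS3 is best known as the STAT3 target that brakes interleukin-6 type signals in liver, and CISH as the STAT5 target that brakes growth hormone, prolactin and interleukin-2 type signals.

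The socs3 gene lies on chromosome 23 of assembly fSpaAur1.1 at positions 17939214 to 17941677 on the minus strand. The cish gene lies on chromosome 6 at positions 17401575 to 17404113 on the plus strand. RefSeq's gene table for that assembly calls them socs3a and cisha, the letters that mark one copy of a duplicated fish gene. Each was counted over 1 mRNA span, introns included, of 2464 bases for socs3 and 2539 bases for cish, and neither span overlapped another gene. The closest neighbour of cish is hemk1, on the opposite strand and ending 418 bases from the end of cish. Counting took no account of strand, so transcripts that run past the end of one gene would be counted for the other.

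The 28 libraries used held between 9276705 and 20580440 counts, with a median of 17301416. Head kidney control replicate 1 held 926 counts and none for either gene, and was left out. Head kidney control replicate 3 was left out as well, because its 11 hepatocyte genes summed to 39785 CPM against 5.17 to 25.5 CPM in the other 3 head kidney control libraries. In that library socs3 stood at 18.0 CPM and cish at 10.8 CPM. CPM gives the counts of a gene relative to the total of its library. Elsewhere marker genes matched the tissue labels: the hepatocyte sum was at least 49350 CPM in liver, and the sum of 6 brush border genes was at least 4169 CPM in intestine and at most 177 CPM in liver.

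In liver, socs3 was low in every control fish and higher in every SDY fish. It stood at 8.28, 8.86, 10.9, 9.31 and 6.5 CPM in control replicates 1 to 5. On the SDY diet it stood at 91.7, 50.7, 12.6, 108 and 83.3 CPM. The ranges did not overlap, but SDY replicate 3 lay close to the controls, at 1.15 times the highest of them, while the other 4 SDY livers were far above. The group means were 8.78 ± 1.61 CPM (SD, n = 5) and 69.2 ± 37.8 CPM (SD, n = 5), a ratio of 7.88. The fitted log2 difference was 2.94 (SE 0.46). Of the 15010 genes tested in liver, 0.353% had every SDY library above every control library.

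The liver values of cish had the same shape with a wider spread. The controls stood at 1.54, 1.85, 5.91, 8.58 and 3.19 CPM. The SDY livers stood at 67.6, 60.4, 2.05, 79.5 and 94.9 CPM. SDY replicate 3 lay within the control range, on 19 counts, and the other 4 lay above every control, so the groups overlapped through 1 library. The means were 4.21 ± 2.99 and 60.9 ± 35.4 CPM (SD, n = 5 each), a ratio of 14.5, and the fitted log2 difference was 3.70 (SE 0.82). At least 4 SDY livers lay above every control for 3.67% of the genes tested. Without SDY replicate 3 the log2 difference was 4.03 for cish and 3.22 for socs3.

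No gene passed an adjusted p of 0.05 for diet in liver with edgeR's quasi-likelihood test (0 of 15010, 0.0%), although 1613 genes had an unadjusted p under 0.05. DESeq2 called 94 genes (0.652% of 14413 with an adjusted p), a single edgeR fit of all 28 libraries called 29 (0.143% of 20296 genes), and the edgeR fit of liver without SDY replicate 3 called 17. SDY replicate 3 was also the shallowest library used, with 9276705 counts. It had the lowest hepatocyte sum of the 5 SDY livers, 49350 CPM against 56343 to 82841, and the highest sum of 3 exocrine pancreas genes, 22127 CPM against 6797 to 17754. The part of depth and of tissue makeup in its low socs3 and cish was not tested. In bulk tissue, fewer cells of a type and less RNA per cell cannot be told apart.

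**Figure D1:**
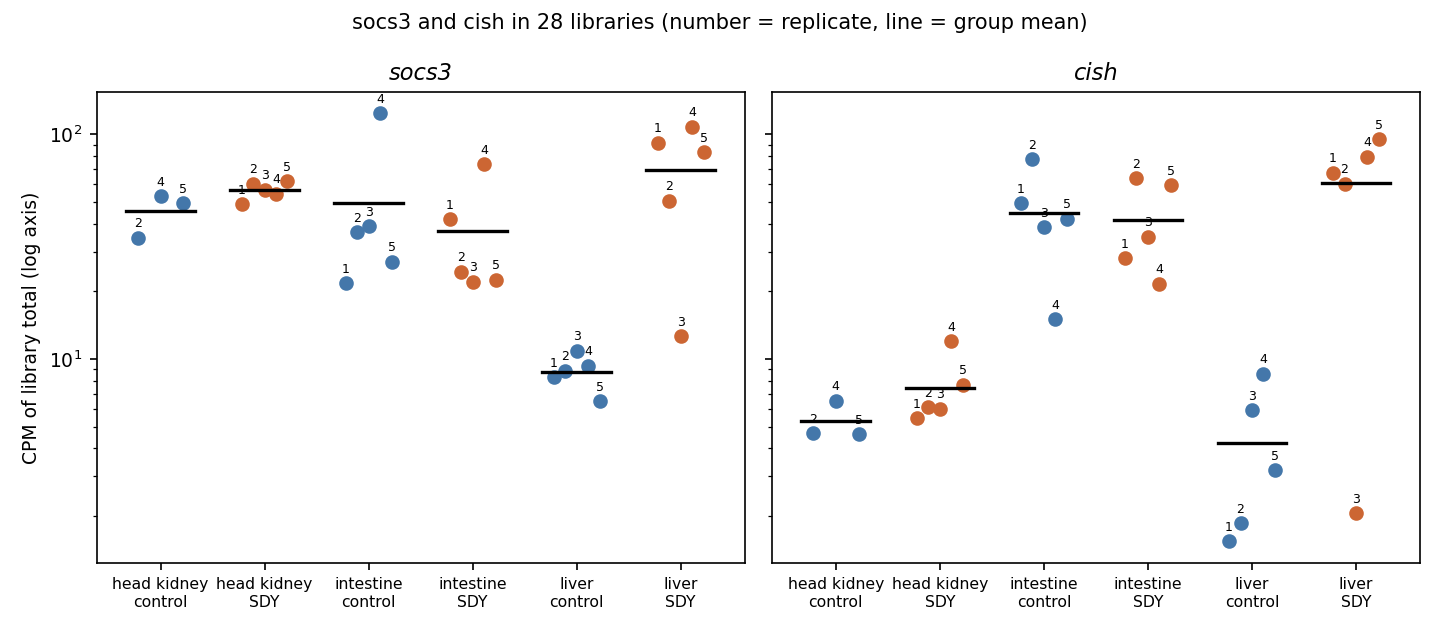
CPM of socs3 (left) and cish (right) in each of the 28 libraries on a log axis, by tissue and diet. Points are libraries labelled with their replicate number and lines are group means. In liver, socs3 is at most 10.9 CPM in controls and at least 50.7 CPM in 4 of 5 SDY fish, and SDY replicate 3 stays near or within the control range for both genes.

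In intestine, both genes differed far more between fish than between diets. The control intestines held socs3 at 21.8, 36.6, 39.0, 124 and 27.1 CPM, and the SDY intestines at 42.0, 24.5, 22.1, 73.7 and 22.5 CPM. No SDY library lay above or below every control. The log2 diet difference was -0.39 (SE 0.45), and it turned to 0.18 without control replicate 4, which held 124 CPM.

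For cish the control intestines stood at 49.4, 77.6, 38.5, 15 and 42.2 CPM, and the SDY intestines at 28.1, 63.8, 35.0, 21.6 and 59.4 CPM. These ranges overlapped too, with means of 44.5 ± 22.5 and 41.6 ± 18.9 CPM (SD, n = 5 each). The log2 difference was -0.06 (SE 0.46). In intestine edgeR called 0 of 18221 genes for diet (0.0%), with 1185 at an unadjusted p under 0.05, and DESeq2 called 46 (0.254%).

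Head kidney, the blood-forming and immune organ of fish, had socs3 at levels much like intestine and little cish. The 3 controls held socs3 at 34.7, 53 and 49.4 CPM (replicates 2, 4 and 5). The 5 SDY libraries held it at 48.8, 60.4, 56.8, 54.5 and 61.7 CPM. Of these SDY libraries, 4 lay above every control, but the log2 difference was only 0.19 (SE 0.13). The sum of 12 erythroid genes ran from 2964 to 4988 CPM in the control head kidneys and from 1210 to 3822 CPM in the SDY head kidneys. In SDY replicates 1 to 5 it was 2291, 1210, 1988, 2438 and 3822 CPM, so only replicate 5 reached the control range. For 6 B cell genes the sums overlapped, at 881 to 1088 CPM in the controls and 793 to 1434 CPM on the SDY diet. The sum of 14 macrophage and neutrophil genes ran from 6453 to 7027 CPM in the controls and from 4534 to 6804 CPM on the SDY diet, where 3 of 5 libraries lay below every control. The sum of 14 T cell genes ran from 309 to 527 CPM and from 385 to 1020 CPM, with 3 of 5 SDY libraries above every control. The genes behind these sums were not looked at one by one in head kidney, so a single gene may carry a sum. No share of all genes lying below the head kidney controls is given beside them. The part of these cell types in the socs3 values was not tested. On plain CPM, 9.46% of genes tested in head kidney had every SDY library above every control, so a small upward offset was common there. The share with at least 4 of 5 above, as for socs3, was not counted but cannot be lower.

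The head kidney controls held cish at 4.67, 6.51 and 4.62 CPM, and the SDY head kidneys at 5.43, 6.11, 5.99, 12 and 7.67 CPM. SDY replicate 4 was the highest, and the other 4 lay near the controls. The log2 difference was 0.38 (SE 0.29) and became 0.14 without SDY replicate 4. With control replicate 3 included it was -0.09. For diet in head kidney edgeR called 1 of 17151 genes (0.00583%), neither socs3 nor cish, with 2020 at an unadjusted p under 0.05, and DESeq2 called 249 (1.49%).

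The diet difference of socs3 in liver exceeded that in intestine by 3.34 on the log2 scale (SE 0.60) and that in head kidney by 2.77 (SE 0.62). For cish these differences of differences were 3.78 (SE 0.87) and 3.36 (SE 0.94). Between intestine and head kidney they were -0.57 (SE 0.63) for socs3 and -0.42 (SE 0.93) for cish, smaller than their errors. As the genes were chosen for their liver difference, these values carry no p.

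Ordered by mean CPM, socs3 was highest in SDY liver (69.2), followed by SDY head kidney (56.4), control intestine (49.6), control head kidney (45.7), SDY intestine (37.0) and control liver (8.78). The first 5 groups overlapped from each to the next and differed by less than 1 SD. Control liver was the only group apart, below every SDY intestine library. The order of cish was SDY liver (60.9), control intestine (44.5), SDY intestine (41.6), SDY head kidney (7.43), control head kidney (5.27) and control liver (4.21). Here the break lay after the third group, where no SDY intestine library overlapped SDY head kidney, and the last 3 groups overlapped.

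These orders depend on how libraries of different tissues are scaled. TMM, edgeR's trimmed-mean scaling, gave liver factors of 0.415 to 0.625 against 1.07 to 1.49 in intestine and 1.44 to 1.70 in head kidney. On TMM-scaled CPM, control liver still had the lowest socs3 (16.3), but its range overlapped SDY intestine. On that scale control liver held more cish (8.41) than either head kidney group, 4.56 and 3.53, with overlapping ranges.

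The genes could be compared with each other only per length. Per kilobase of counted span, socs3 held 22.9 CPM and cish 2.93 CPM in SDY head kidney. In control intestine the values were 20.2 for socs3 and 17.5 for cish, and in SDY liver 28.1 and 24. In control liver both were low, at 3.56 and 1.66 CPM per kilobase. Thus head kidney held far more socs3 than cish, and the other tissues held them at closer levels.

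Tissues were compared, averaged over the diets, in one edgeR fit of the 28 libraries. The difference between intestine and head kidney compares no liver libraries, and it was tested. Its estimate is thus largely free of the values that chose the genes. Its SE and p are not, since spread and scaling were estimated from all 28 libraries, SDY livers included. For the socs3 diet difference in head kidney, the SE was 0.13 in the fit of that tissue alone and 0.47 in this fit. Most genes differ between intestine and head kidney: 73.6% of 20296 genes were called. There cish was higher in intestine by 3.11 on the log2 scale (SE 0.52, edgeR adjusted p 9.17e-06), where 38.5% of genes were called higher. For socs3 the difference between intestine and head kidney did not pass (-0.02, SE 0.31, edgeR adjusted p 0.969).

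The liver averages contain the SDY livers for which the genes were chosen, so the liver differences are described with no test. Between liver and head kidney, cish differed by 1.23 on the log2 scale (SE 0.75) in control fish and by 4.59 in SDY fish, an average of 2.91 (SE 0.52). Between liver and intestine the values of cish had opposite signs, -2.09 in control fish and 1.69 in SDY fish. The same held for socs3, at -0.91 in control fish and 1.86 in SDY fish between liver and head kidney, and at -1.18 and 2.16 between liver and intestine. With TMM scaling the liver estimate of socs3 thus lay below those of the other tissues on the control diet and above them on the SDY diet.

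The averages over diets also turned with the scaling. For socs3 they were 0.48 between liver and head kidney and 0.49 between liver and intestine with TMM, and -1.04 and -0.80 with plain library totals. The median of all genes between liver and head kidney was -0.03 with TMM and -1.50 with plain library totals. Between liver and intestine it was -0.18 and -1.38. The averages of socs3 lay above these medians, but they contain the SDY livers for which it was chosen. In control fish with TMM the medians were 0.0 and -0.17, and socs3 lay below both, at -0.91 and -1.18. For cish the average between liver and intestine was -0.20 with TMM and -1.42 with plain library totals, the second close to the median of all genes on that scale.

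Across fish of the same tissue and diet, socs3 and cish moved together in liver and apart in intestine. After the group means were removed from log2 TMM-scaled CPM, Pearson's r between the genes was 0.91 over the 10 livers (permutation p 0.004, adjusted over 4 correlations 0.016). Spearman's rho there was 0.78 (permutation p 0.0069, adjusted 0.028). These livers include the SDY livers for which both genes were chosen. Centring removed the group means but not the spread within groups, so the liver p-values are read as descriptions. Without SDY replicates 3 and 1, the livers farthest from the median in socs3, r was 0.70 over 8 libraries. The group means of all 10 livers were kept for that r, so part of the diet difference can remain in it. The liver relation was weaker without those livers, and its strength there is uncertain.

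In intestine Pearson's r was -0.86 over 10 libraries (permutation p 0.0089, adjusted 0.018), while Spearman's rho of -0.67 missed the threshold (permutation p 0.054, adjusted 0.11). Without control replicate 4 and SDY replicate 4, and with the group means of all 10 kept, r was -0.44 over 8 libraries. The relation thus rests largely on the replicate 4 libraries. In head kidney r was 0.25 over 8 libraries (permutation p 0.47, adjusted 0.47), and over all 28 libraries it was 0.40 (permutation p 0.22, adjusted 0.29). With plain library totals the adjusted p was 0.057 in both liver and intestine, with r of 0.89 and -0.82. The unadjusted permutation p in intestine was 0.016 on that scale. The 4 correlations adjusted together include those of liver and of all 28 libraries, which hold the SDY livers for which the genes were chosen. On both scales the adjusted intestine values therefore depend on those livers.

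**Figure D2:**
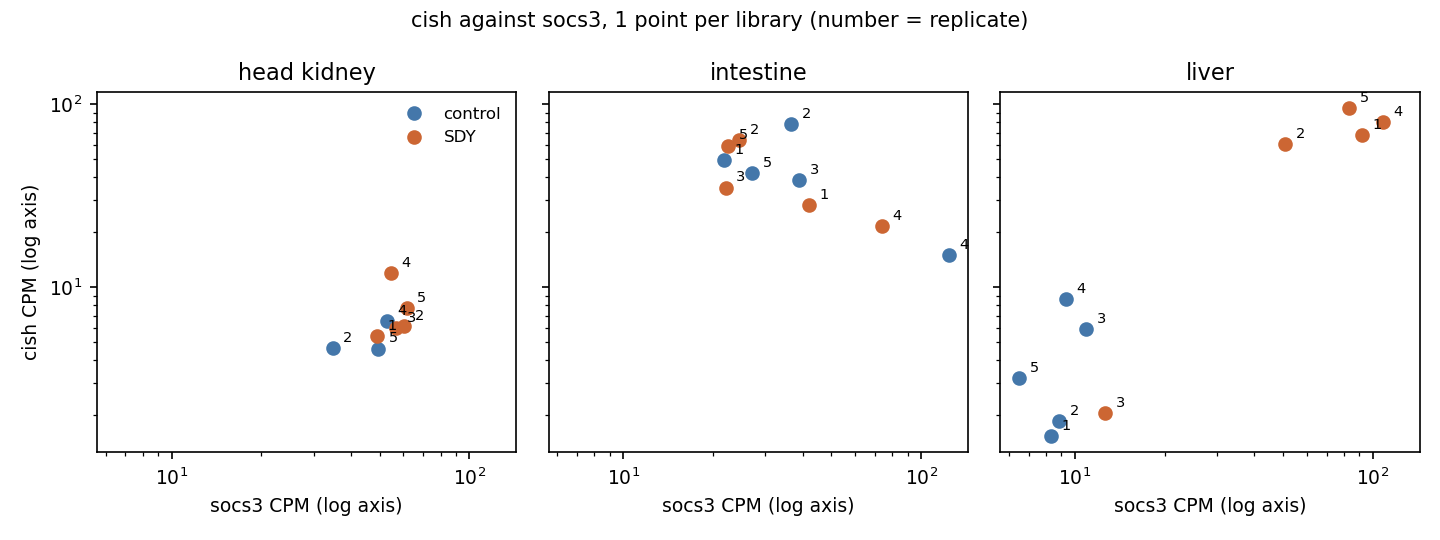
CPM of cish against CPM of socs3 on log axes, 1 panel per tissue and 1 point per library, coloured by diet and labelled with the replicate number. The livers run from low to high in both genes, with SDY replicate 3 at 12.6 CPM of socs3 and 2.05 CPM of cish, and in intestine the replicate 4 libraries of both diets combine the highest socs3 with the lowest cish.

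The intestine libraries with the number 4 stood apart in both diets. Control replicate 4 held the most socs3 (124 CPM) and the least cish (15 CPM) of the 10, and SDY replicate 4 held the second most socs3 (73.7 CPM) and the second least cish (21.6 CPM). Their sums of 6 brush border genes, which mark absorptive enterocytes, were the lowest, at 4169 and 7705 CPM against 10566 to 20106 in the other 8 libraries. Their sums of 14 macrophage and neutrophil genes were the highest, at 3654 and 4991 CPM against 798 to 1718.

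Most of that myeloid excess was a single gene, mpx (LOC115593256), the neutrophil peroxidase, with 2685 and 3927 CPM against 17.8 to 718. Of the 14 genes only mpx and cybb, a subunit of the phagocyte oxidase, exceeded every other intestine library in both, and these genes were named after their values were seen. The sum of 12 erythroid genes was the lowest in these libraries, at 125 and 123 CPM against 162 to 252 in the other 8. T cell and B cell sums lay within the range of the others, at 345 and 347 CPM for T cells and 66.4 and 65.7 CPM for B cells. The part of tissue makeup in the intestine values of socs3 and cish was not tested. The labels do not say that libraries with the same number come from one fish or were handled together.

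**Figure D3:**
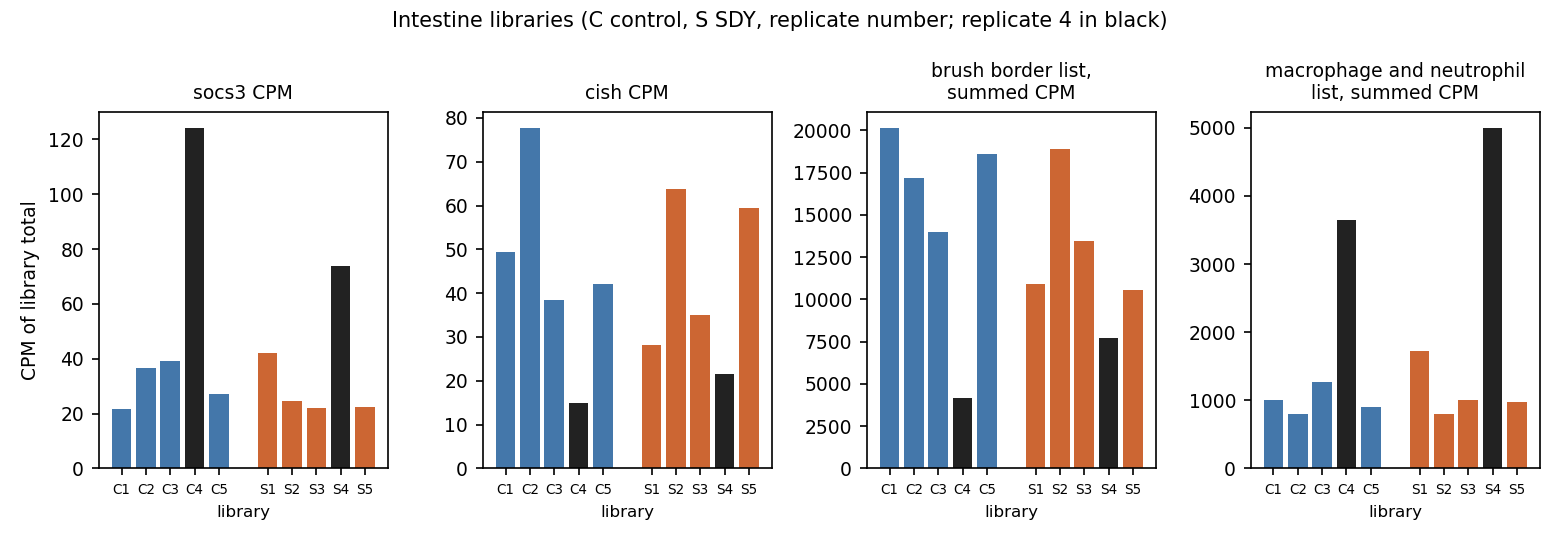
Bars show socs3, cish, the summed CPM of 6 brush border genes and the summed CPM of 14 macrophage and neutrophil genes in the 10 intestine libraries (C control, S SDY, with the replicate number). Black bars mark replicate 4, which has the highest socs3 and myeloid sums and the lowest cish and brush border sums in its diet group.

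Of the SOCS family, 10 genes were found in the count tables by symbol or through the RefSeq table, 8 of which passed the filter on low counts in liver. Among the 6 besides socs3 and cish, the liver diet differences were not called (0 of 6), and all genes tested had a median of 0.0. The copy cishb (LOC115583030), the duplicate of cish, had the largest difference among these 6, at 2.12 on the log2 scale (SE 0.81, edgeR adjusted p 0.404). It stood at 1.24, 1.17, 5.02, 11.1 and 1.22 CPM in control livers and at 18.5, 17.8, 1.62, 31.5 and 29.6 CPM in SDY livers. As with cish, 4 of 5 SDY livers lay above every control and replicate 3 lay among the controls. At least 4 did so for 3.67% of genes tested.

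Outside liver cishb was close to absent, at no more than 0.441 CPM in any library used, whereas cish reached 77.6 CPM in intestine. Averaged over diets, cishb was higher in liver than in intestine by 7.15 on the log2 scale (SE 0.62, edgeR adjusted p 9.82e-11), a comparison in which 78.8% of genes were called. A read that aligned to both could have been lost or misplaced.

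The gene socs2 (LOC115595808), whose loss in mice leaves growth hormone signalling unchecked, differed between diets in liver by 1.35 (SE 0.61, edgeR adjusted p 0.461). Its control livers stood at 1.36, 1.6, 4.64, 6.71 and 1.28 CPM and its SDY livers at 5.56, 6.96, 2.26, 14.3 and 14.8 CPM. Control replicates 3 and 4 were the highest controls for cish, cishb and socs2 alike, and SDY replicate 3 was the lowest SDY liver for all 3 genes. The gene socs1, whose mammalian product brakes interferon signalling, differed by 1.09 (SE 0.47, edgeR adjusted p 0.442). It stood at 1.42, 1.78, 2.23, 1.86 and 1.45 CPM in control livers and at 6.36, 3.04, 0.431, 4.85 and 3.95 CPM in SDY livers.

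The remaining family members tested in liver were level between diets: socs5 at -0.15 (SE 0.12), socs6 at 0.08 (SE 0.16) and socs9 (LOC115596355) at -0.07 (SE 0.19). In mammals SOCS5 and SOCS6 have mostly been linked to growth factor receptors. The genes socs4 (LOC115580547) and socs7 were too low to be tested in any tissue alone, at most 0.514 and 0.931 CPM in the libraries used. SDY replicate 3 was the lowest of the SDY livers for 6 of the 8 family genes tested, the chosen socs3 and cish among them. The share of all genes tested in liver for which that library was lowest was not counted. The 6 of 8 is thus no result about the family.

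**Figure D4:**
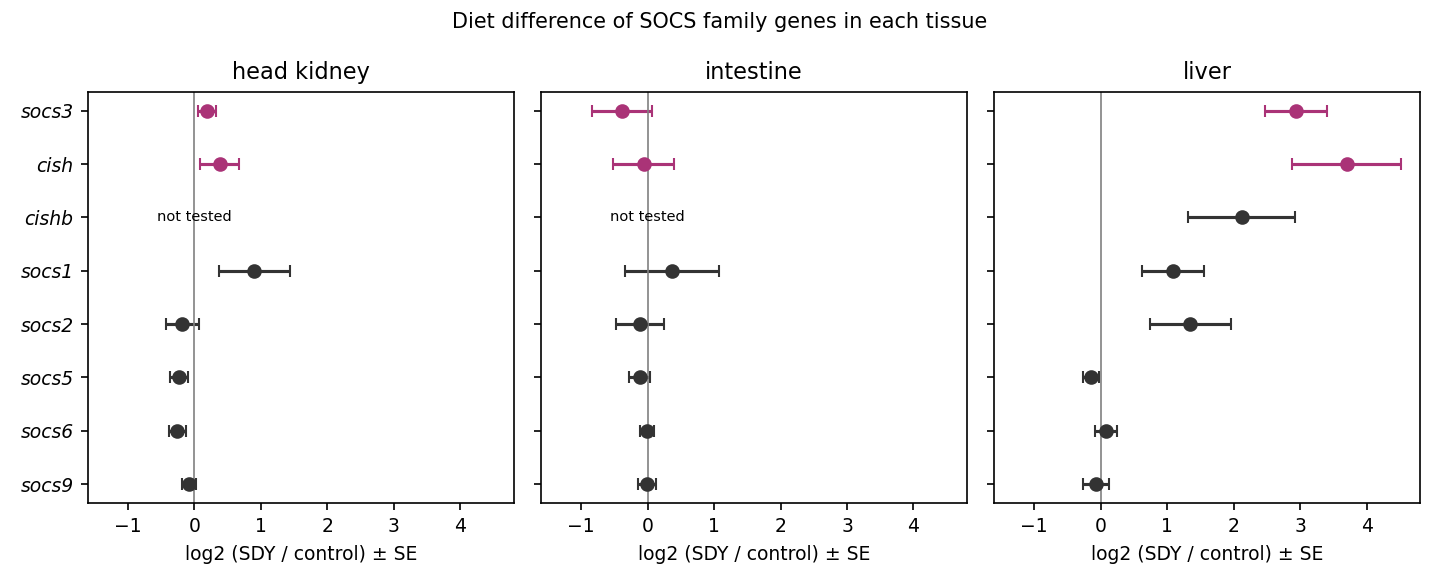
Fitted log2 difference between SDY and control fish, with its SE, for 8 SOCS family genes in head kidney, intestine and liver. In liver socs3 and cish stand at 2.94 and 3.70, cishb, socs1 and socs2 lie between 1.09 and 2.12, and socs5, socs6 and socs9 lie near 0. In the other tissues no family gene tested exceeds 0.90.

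The convergent neighbour of cish, hemk1, a methyltransferase gene, was looked at because strand was not used in counting. It stood at 1.07 to 2.42 CPM in control livers and at 2.69 to 4.5 CPM in SDY livers, with every SDY liver above every control. The same held for 0.353% of the 15010 genes tested in liver. The fitted log2 difference of hemk1 was 1.22 (SE 0.19), given with no p because the gene was named after its values were seen. In SDY replicate 3 it held 2.69 CPM, more than the 2.05 CPM of cish. In intestine, where cish reached 77.6 CPM, hemk1 held 1.85 to 5.98 CPM and its group-centred r with cish was -0.25 over 10 libraries. In liver that r was 0.63 over 10 libraries and in head kidney -0.48 over 8. The part of transcripts running past the end of either gene in these counts was not tested.

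**Figure D5:**
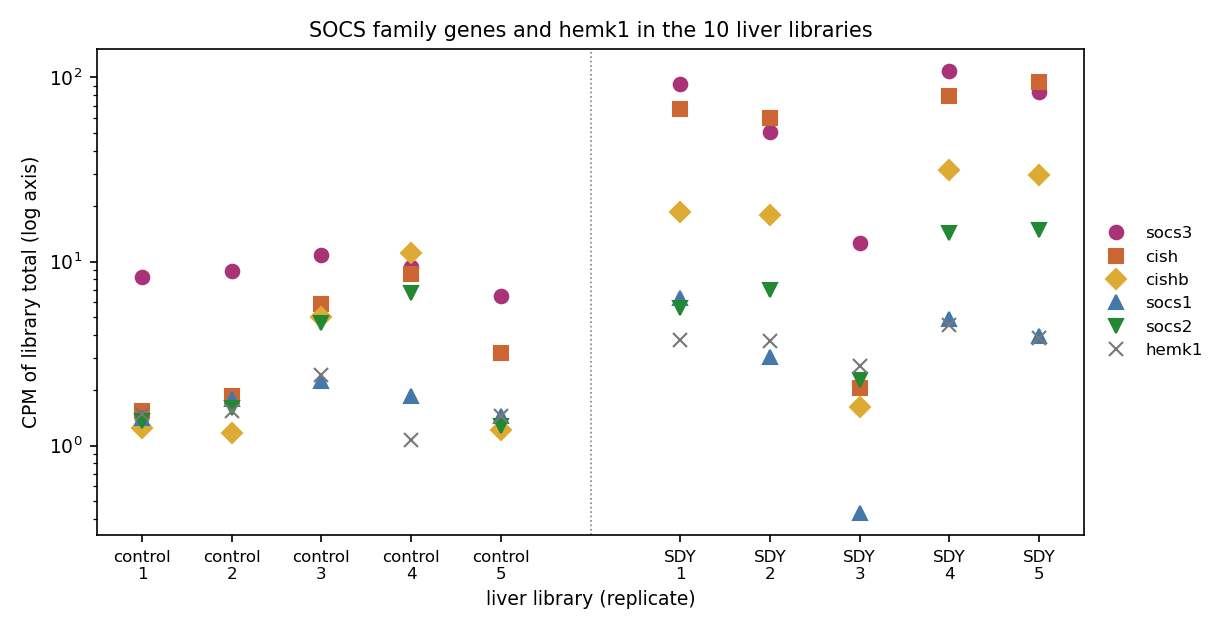
CPM on a log axis of socs3, cish, cishb, socs1, socs2 and hemk1 in the 5 control and 5 SDY livers, by replicate. SDY replicate 3 falls to 2.05 CPM for cish, 1.62 CPM for cishb, 2.26 CPM for socs2 and 0.431 CPM for socs1, while socs3 stays at 12.6 CPM and hemk1 at 2.69 CPM.

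The genes around socs3 and cish in the pathway were taken as lists, and edgeR called none of their other members for diet in any tissue. DESeq2 called 6 of 104 list genes other than socs3 and cish in liver, where it called 0.652% of all genes. It called 0 of 110 in intestine (0.254% of all genes) and 3 of 109 in head kidney (1.49% of all genes). The edgeR fit of 28 libraries called 5 of 127 in liver, against 0.143% of all genes. The lists were drawn up with earlier results of these data known, so these shares are descriptions. The median log2 diet difference over all genes was 0.0 in liver, where 49.5% of genes lay above 0 and 5.68% were higher at an unadjusted p under 0.05.

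Of the kinases that SOCS proteins hold down, 4 JAK genes were tested in liver, with a median of 0.10. The gene jak1 was at 0.17 (SE 0.13, edgeR adjusted p 0.666). Among 5 STAT genes the liver median was 0.78, 2 were higher at an unadjusted p under 0.05, and none was called. The gene stat3, the main inducer of SOCS3 in mammals, stood at 68.6 ± 11 CPM in control livers and 117 ± 39.5 CPM in SDY livers (SD, n = 5 each). Its log2 difference was 0.78 (SE 0.24, edgeR adjusted p 0.359). Every SDY liver lay above every control, as for 0.353% of genes tested. The margin was narrow, with SDY replicate 3 at 82.7 CPM against a highest control of 81.6. The gene stat1a (LOC115577023), which carries interferon signals, was at 0.94 (SE 0.41, edgeR adjusted p 0.449) with overlapping groups.

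Ligands and receptors spread to both sides of 0 in liver. The 7 ligand genes tested there ran from -0.91 to 0.98 with a median of -0.08, and the 22 receptor genes from -1.46 to 0.40 with a median of -0.03. The growth hormone receptor gene ghr stood at 118 ± 51.7 CPM in control and 74.2 ± 26.4 CPM in SDY livers (log2 difference -0.63, SE 0.27, edgeR adjusted p 0.441). The erythropoietin receptor gene epor (LOC115575155) was at -0.83 (SE 0.30, edgeR adjusted p 0.387). It is also on the erythroid marker list, and was at -0.74 (SE 0.36) in head kidney and -0.68 (SE 0.31) in intestine. The erythroid sum ran from 117 to 318 CPM in control livers and from 92.2 to 152 CPM in SDY livers. The part of blood cells in the epor values was not tested. In liver thpo, the thrombopoietin gene, was at -0.64 (SE 0.18, edgeR adjusted p 0.343). The interleukin-15 gene il15 (LOC115581282) was at 0.65 (SE 0.34, edgeR adjusted p 0.523). None of these passed the test.

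SOCS proteins bring their targets to a ubiquitin ligase, and the 8 genes of that ligase had a liver median of 0.23. Its genes eloc, for elongin C, and rnf7, for a RING subunit, were at 0.35 (SE 0.15) and 0.37 (SE 0.18), neither called. Other inhibitors of the pathway, 14 genes tested, had a liver median of 0.0. The phosphatase genes ptpn2b (LOC115579139) and ptpn1 (LOC115585574) were at 0.54 (SE 0.17) and 0.43 (SE 0.18), also not called. The span of ptpn1 overlaps klhl12, so its counts are uncertain.

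Genes listed as STAT3 and acute phase targets, or as STAT5 and growth hormone targets, lay on both sides of 0 in liver. A place on these lists does not by itself make a gene a direct target of a STAT factor. The 20 STAT3 and acute phase genes tested in liver had a median of -0.03 with 10 of 20 above 0, and the 12 STAT5 and growth hormone genes a median of -0.10 with 5 of 12 above 0. Within them myc, a growth regulator, stood at 9.08 ± 2.92 CPM in control and 24.5 ± 9.61 CPM in SDY livers (log2 difference 1.49, SE 0.29, edgeR adjusted p 0.283). The stress gene gadd45g stood at 10.5 ± 1.38 and 24 ± 5.48 CPM (1.18, SE 0.19, edgeR adjusted p 0.147). At 0.97 CPM in SDY replicate 3 and up to 213 CPM in another SDY liver, cyp2r1 (LOC115579993), a vitamin D hydroxylase gene, was at 4.01 (SE 1.14, edgeR adjusted p 0.343). The gene nfkbiz (LOC115577238) was at -1.36 (SE 0.46, edgeR adjusted p 0.378).

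Immediate early genes, which many stimuli switch on within a short time, had the highest liver median among the lists when socs3 and cish were left out. The SOCS family median was 1.22 with these chosen genes and 0.58 without them. Of the 14 found in the count tables, 10 passed the filter on low counts in liver. All 10 were above 0, against 49.5% of all genes tested, with a median of 1.09. Of these, 6 were higher at an unadjusted p under 0.05, against 5.68% of all genes. The transcription factor gene atf3 stood at 4.31 ± 1.45 CPM in control livers and 40.0 ± 18.3 CPM in SDY livers. Its difference of 3.18 (SE 0.41) had an edgeR adjusted p of 0.109. The AP-1 gene fosl2 stood at 7.24 ± 0.533 and 47.6 ± 29 CPM, a difference of 2.67 (SE 0.43, edgeR adjusted p 0.147). Both genes were among the 6 list genes that DESeq2 called in liver. The list was drawn up with earlier results known, so these values are descriptions. In SDY replicate 3, atf3 held 9.38 CPM and fosl2 11.6 CPM, the lowest SDY liver for both and above every control, as for socs3. Every SDY liver lay above every control for 0.353% of genes tested.

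Over all 28 libraries with group means removed, the 5 genes with symbols whose log2 CPM followed socs3 most closely were ufm1, lonp1, pdzd11, pgs1 and spcs1, with Pearson's r from 0.85 to 0.87. Of the SOCS family socs1 was nearest to socs3, with an r of 0.83 and rank 11 of 20295 genes. For cish the nearest were pi4k2a, trib1, igf2, rec114 and btbd9, with r from 0.82 to 0.87, and igf2 encodes an insulin-like growth factor. Here socs2, with an r of 0.81, ranked 10 and cishb, with 0.79, ranked 14, ahead of socs3 at 0.40. The tissues differed within these values. For cishb with cish, r was 0.94 in liver, 0.20 in intestine and -0.28 in head kidney, and cishb was close to absent outside liver. In head kidney the 5 genes nearest to socs3 ran from -0.25 (pgs1) to 0.82 (spcs1). Those nearest to cish ran there from 0.02 (btbd9) to 0.63 (igf2). The spans of rec114 and pgs1 overlap other genes, so their counts are uncertain, and rec114 stood at 2.63 CPM at most in the libraries used. With plain library totals the r of btbd9 with cish was 0.58, against 0.82 with TMM. These correlations are descriptions over libraries that share tissue, diet and scaling, and they weigh the fish with large deviations, such as liver SDY replicate 3 and the intestine replicate 4 libraries, most heavily.

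In intestine, socs1 and socs2 split in the manner of socs3 and cish. The replicate 4 libraries held socs1 at 92.4 and 90.2 CPM, above the 7.32 to 45.7 CPM of the other 8, and socs2 at 4.81 and 5.18 CPM, below every other intestine library. Within intestine the group-centred r was 0.90 between socs3 and socs1 and 0.87 between cish and socs2, against -0.94 between cish and socs1. In liver all of these were upward, with r of 0.98 between socs3 and socs1 and 0.83 between cish and socs2. In liver SDY replicate 3, socs1 rested on 4 counts. Head kidney did not show these pairs: r was -0.20 between socs3 and socs1 and 0.03 between cish and socs2. Between cish and socs1 it was -0.02 there.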

How the data were processed

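RNA was sequenced from 30 libraries of 3 tissues. The authors deposited whole-number counts per gene, which per the file headers come from featureCounts 1.5.3 over mRNA features grouped by gene on assembly fSpaAur1.1. The headers set the option that counts a read for every overlapping gene, and no strand or paired option. Reads were trimmed with Trim Galore 0.4.4 and aligned with HISAT2 2.1.0, per the submitters' processing notes, which also name FastQC and DESeq2. The libraries came from a directional kit, per the labels' protocols. All 30 files were read and 0 columns were left unmapped.

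The members and gene lists were chosen with earlier results of these data known. Head kidney control replicates 1 and 3 were left out of every main result. Diet was tested within each tissue with edgeR 4.0.16 in R 4.3.3 (quasi-likelihood test, filterByExpr, TMM) as 5 libraries against 5, or 3 control against 5 SDY in head kidney. Tissues were compared in one fit with 6 group means. The liver contrasts of socs3 and cish, planned as tests, carry no p, since they contain the SDY livers for which the genes were chosen. Adjusted p-values are Benjamini-Hochberg values over every gene tested, with a threshold of 0.05, and SEs come from the F statistic. DESeq2 1.42.0 was an alternative. Values in CPM are relative to plain library totals, and log2 differences are TMM-scaled. Correlations used log2 TMM-scaled CPM with a prior count of 2 and two-sided permutation tests within groups with 100000 resamples. P-values measure the spread between libraries only.

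Besides socs3 and cish, named genes were every SOCS gene, from each list those called for diet and the 2 with the smallest p in liver, and for each member the 5 genes with symbols of highest correlation. The genes hemk1, mpx and cybb fall outside that rule and were named after their values were seen. All 15526 LOC identifiers matched the RefSeq table, which gave 5135 a symbol. No sequences are printed. The edgeR diet fits and the contrast of liver with intestine were checked on simulated counts. There all genes had the same dispersion and no library was an outlier, unlike in these data. DESeq2 and the permutation tests were not checked in this way. Same-numbered libraries were not taken as pairs, since the labels state no pairing. The correlations of their deviations ran from -0.12 to 0.48 between diets and from -0.12 to 0.19 between tissues within a diet. The tissue tests treated all libraries as independent.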

Additional observations from a re-analysis of the deposited data

Results flagged for a closer look

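In 45 sets, each of 1 SOCS family gene other than socs4 within 1 group of 5 libraries, 6 held a library whose distance from its nearest neighbour was larger than Dixon's 95% limit for 5 values (0.71 of the range). That limit flags about 5% of sets of independent, normally distributed values. The sets here share libraries and some rest on few counts, so the 5% is no measure of chance for them. Intestine control replicate 4 was far above its group for socs3, at 124 CPM against 21.8 to 39.0, and for socs1, at 92.4 CPM against 7.32 to 24.1. The same library had the lowest brush border sum and a high mpx count, and the part of tissue makeup was not tested.

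The other 4 rest on few counts. The duplicate cishb stood at 0.441 CPM in head kidney SDY replicate 2 and at 0.321 CPM in intestine control replicate 2. The gene socs7 stood at 0.442 CPM in head kidney SDY replicate 5 and at 0.594 CPM in liver SDY replicate 4.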

How the results depend on the processing

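The diet differences in liver stayed upward under every alternative run, from 2.72 to 3.22 on the log2 scale for socs3 and from 3.47 to 4.36 for cish. In intestine, leaving out each library in turn gave -0.73 to 0.18 for socs3 and -0.34 to 0.20 for cish. In head kidney, adding control replicate 3, or replicates 1 and 3, gave -0.09 for cish, and adding both gave 0.41 for socs3. The number of genes called for diet depended on the test. DESeq2 called 94 genes in liver, 46 in intestine and 249 in head kidney, and among the list genes other than socs3 and cish it called 6 in liver and 3 in head kidney. In liver, plain library totals called 1 gene, also the 1 list gene called, and the fit of 28 libraries called 29, of which 5 were such list genes. In head kidney the count was 0 with control replicates 1 and 3 added. With 1 library left out, the counts ran from 0 to 17 in liver (list genes 0 to 3), from 0 to 3 in intestine and from 1 to 2 in head kidney. The highest liver counts came without SDY replicate 3. The liver value of socs9 ran from -0.18 to 0.03.

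The averaged tissue differences of socs3 turned with the setting. Between liver and intestine it was -1.18 in control libraries alone, 2.16 in SDY libraries alone and -0.80 with plain library totals, and 0.40 to 0.77 with 1 library left out. Between liver and head kidney it was -0.91, 1.86 and -1.04 under the same settings, and 0.38 to 0.61 with 1 library left out. Between intestine and head kidney it was 0.27 in control libraries, 0.03 with RLE size factors and with DESeq2, 0.09 and 0.10 with head kidney control replicate 3 or both added, and -0.29 to 0.07 with 1 library left out, never past the threshold. For cish the liver and intestine difference was -2.09 in control libraries, 1.69 in SDY libraries and -1.42 with plain library totals, and the liver and head kidney difference was 1.23 in control libraries. Its difference between intestine and head kidney passed under every alternative that carries a p. The SEs and p-values of these fits depend on the libraries of all tissues, SDY livers included. In control libraries alone the difference was 3.32 and in SDY libraries alone 2.90, both given with no p. The correlations of socs3 and cish were 0.89 in liver and -0.82 in intestine with plain library totals, each with an adjusted permutation p of 0.057. The liver p entered the adjustment of the intestine p. The causes were not tested beyond the libraries and scalings named.

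With the replicate number as a block, edgeR called 0 genes for diet in each tissue, and the liver differences were 2.72 for socs3 and 3.69 for cish. The numbers pair no fish in the labels, and a library correlated best with its own number in 2 of 3 pairs in head kidney, 1 of 5 in intestine and 2 of 5 in liver. Depth limits the low values most, such as the 19 counts of cish in liver SDY replicate 3.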
